A study of Mus musculus with 13 samples.

Results

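The 33 genes described here are transcripts usually read as marks of astrocytes and radial glia, measured in microglia sorted from the neonatal mouse brain. They were chosen by symbol, as the rows of the deposited count table whose Ensembl identifier maps to one of 33 fixed names. All 33 names were found, so they make up 33 of the 55487 rows, and all 33 were among the 15511 genes that carried enough counts to be tested. Brains were taken at postnatal day 4, stripped of meninges and digested with papain, and CD11b-positive cells were held on a magnetic column. The series' design text calls the collection neonatal, postnatal days 3 to 5. The control group (CON) and the maternal immune activation group (MIA), whose mothers' immune system was activated during pregnancy, each had 5 libraries that the submitters kept. A further CON library (CON 6) and a further 2 MIA libraries (MIA 6 and MIA 7) are titled as excluded by the submitters, and their values are shown apart. The immune-activating agent, the strain, the sex and the litters were not found in the labels (not given in the sources used here). Nor do the labels say that the libraries came from separate animals, so p-values measure only the spread between these libraries, which may be technical. No library carries a genetic modification in its labels.

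Astrocytes are the glia that surround synapses and vessels, take up glutamate and potassium, and are coupled to each other by gap junctions. In the newborn rodent brain they are still being made from radial glia, the neural stem cells of the embryonic ventricular wall, which rely on Notch signalling to stay undifferentiated. Notch receptors cut by a ligand on a neighbouring cell release a fragment that joins the DNA-binding protein RBPJ and switches on the Hes and Hey repressors. Microglia come from the yolk sac and are not part of this lineage. Several of the 33 are not restricted to astrocytes: microglia also use metallothioneins, Glul and Dbi, and vessel cells also use Vim and Hes1.

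Of the 33 genes, 4 differed between 5 MIA and 5 CON libraries: Hes1 and Vim rose in MIA, and the metallothioneins Mt1 and Mt2 fell. Hes1 was 3.29-fold higher and Vim 1.51-fold higher, while Mt1 was 1.44-fold and Mt2 1.61-fold higher in CON than in MIA. The remaining 29 genes, which include Aqp4, Aldh1l1, Gfap, Sox9 and Fabp7, did not pass the test. The test was edgeR's quasi-likelihood test with Benjamini-Hochberg adjustment over all 15511 genes, and a gene passed at an adjusted p under 0.05. The 4 genes are 12.1% of the members, against 10.3% of all tested genes called (5.75% higher and 4.58% lower in MIA), so the share is near the background. Over all genes 892 calls were higher and 710 lower, 55.7% higher. When libraries were scaled by their totals alone, 1035 calls were higher and 496 lower, 67.6% higher. The median log2 fold change over the 33 genes was 0.03 and over all tested genes -0.01. In these bulk libraries fewer cells of a type and less RNA per cell cannot be told apart.

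Library totals ran from 25387030 to 35593505 expected counts, with 27900092 to 35593505 in CON and 25719135 to 29823401 in MIA. Each of the 33 genes had between 9 and 10673 expected counts in every library, so no member was at 0. The microglial markers were abundant throughout, with a summed level over 10 genes of 14836 to 28906 CPM, which are counts scaled to a common library total. They were lower in MIA (14836 to 18999 CPM) than in CON (22748 to 28906 CPM), and all 10 fell. Markers of endothelium went the other way: all 10 rose, with summed levels of 893 to 1465 CPM in CON and 2644 to 4469 CPM in MIA. Summed neuronal markers were 54.9 to 73.0 CPM in CON and 109 to 159 CPM in MIA, and 5 of 10 rose. No gene of any marker list was at 0 in all 13 libraries.

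**Figure D1:**
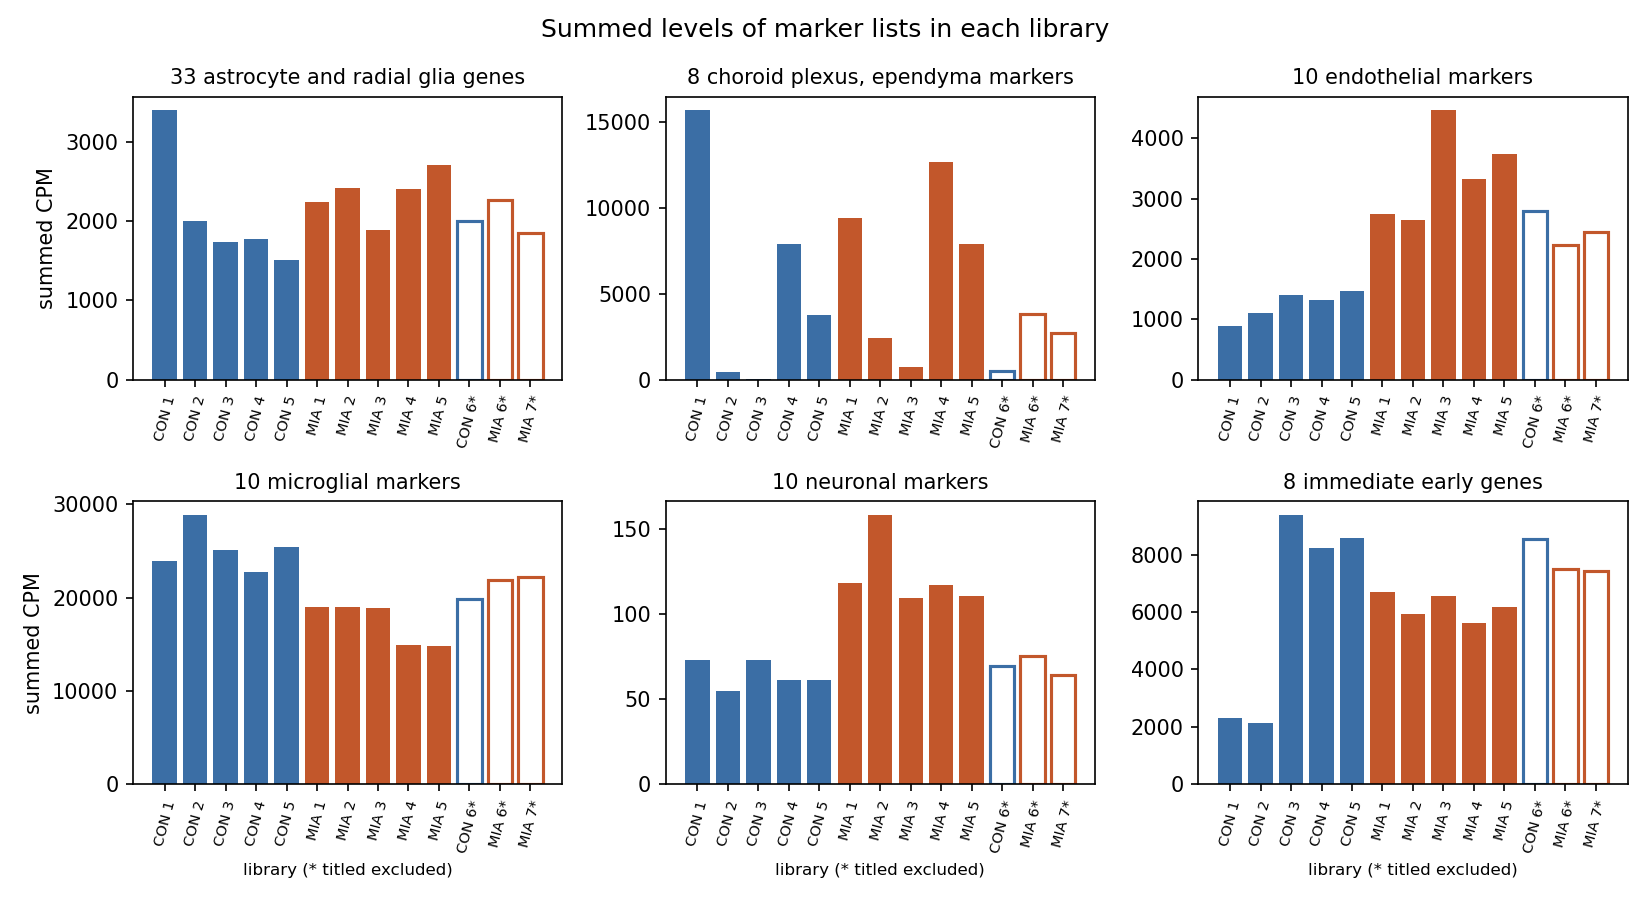
Summed level in CPM (linear axes from 0) of the 33 members and of 5 other gene lists in each of the 13 libraries, with open bars for the excluded ones. The microglial sum was lower in all 5 MIA than in all 5 CON libraries and the endothelial sum was higher, while the choroid plexus and ependyma sum spread from 39.2 to 15689 CPM without following the groups.

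One control library stood apart and touches most of the members. CON 1 held the highest value of all 13 libraries for 18 of the 33 genes (54.5%), against 16.8% of all tested genes, and the lowest for 1, Nes. Its level was at least 2 times the median of the other 12 libraries for 14 members, against 10.2% of all tested genes. The median ratio of CON 1 to the median of the other 12 was 1.89 over the members and 1.00 over all tested genes. It was 4.75 for Sox2, 3.86 for Mt3, 3.80 for Clu, 3.41 for Mlc1, 3.38 for Ttyh1, 3.34 for Sox9 and 3.00 for Aldoc, and it was 0.334 for Hes1. The 33 genes summed to 3401 CPM in CON 1 and to 1507 to 2712 CPM in the other 12 libraries.

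The same library also differed in marker lists of other cells. Its choroid plexus and ependyma markers summed to 15689 CPM, against 39.2 to 12670 CPM elsewhere, and it held the highest value for 7 of those 8 genes. Most of the sum in CON 1 was the choroid plexus transcript Ttr, at 15317 CPM. Foxj1, the regulator of motile cilia that marks ependyma, stood at 70.8 CPM in CON 1 and at 6.74 to 23.0 CPM in the others. CON 1 and CON 2 shared low erythroid sums (61.1 and 80.1 CPM, against 1168 to 3030 CPM elsewhere). Both also had low immediate early gene sums (2301 and 2128 CPM, against 5618 to 9403 CPM). The part of these differences in the members' levels was not tested. Fold changes of most members below are given with CON 1 and without it.

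**Figure D2:**
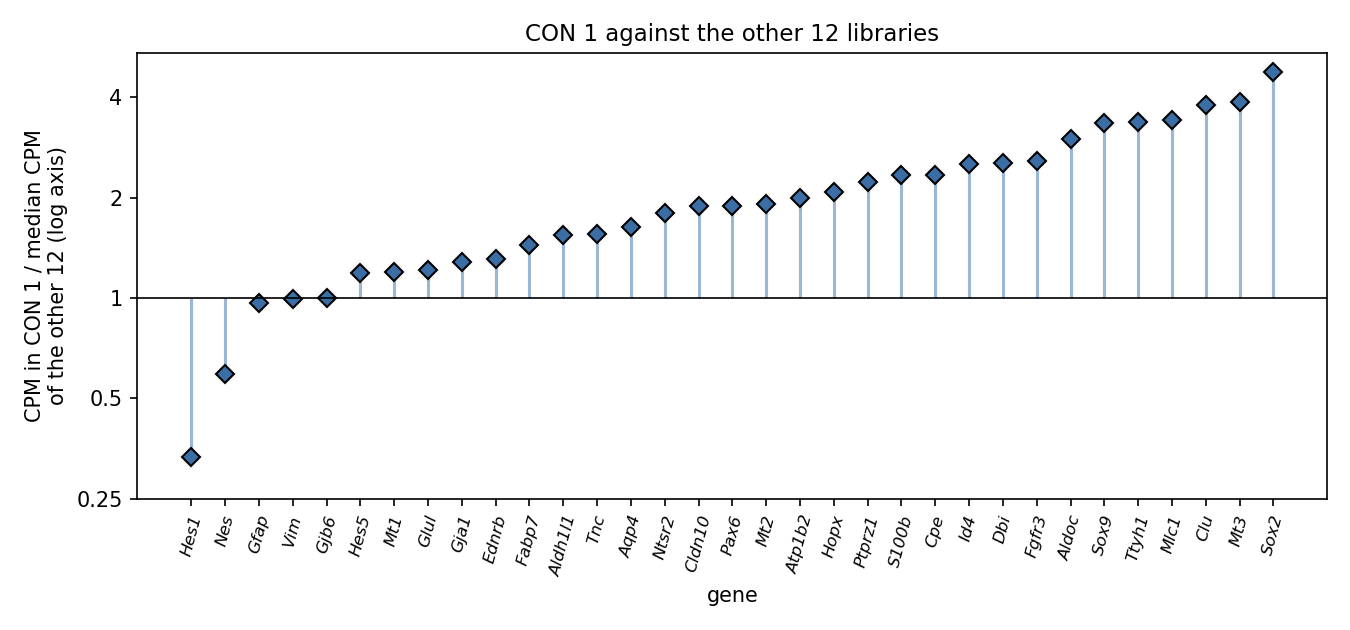
Ratio of the level in CON 1 to the median level of the other 12 libraries for each of the 33 genes, on a log axis, with the line at 1 marking no difference. Of the 33 points, 14 lie at 2 or above, Sox2 is the highest at 4.75 and Hes1 the lowest at 0.334.

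Within the control group the members spread widely. The median coefficient of variation over the 33 genes was 52.1% in CON and 26.4% in MIA, against 20.2% and 16.99% over all tested genes. It was higher in CON than in MIA for 30 members, and for 20 when CON was taken as CON 2 to CON 5, whose median was 31.6%. Mt1 was the steadiest member in CON at 2.90%, followed by Glul at 9.58% and Vim at 15.1%. Sox2 was the most variable at 108%, then Sox9 at 94.9%. CON 5 lay at the other end: it held the lowest value of the 13 libraries for 15 members, against 7.07% of all tested genes.

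**Figure D3:**
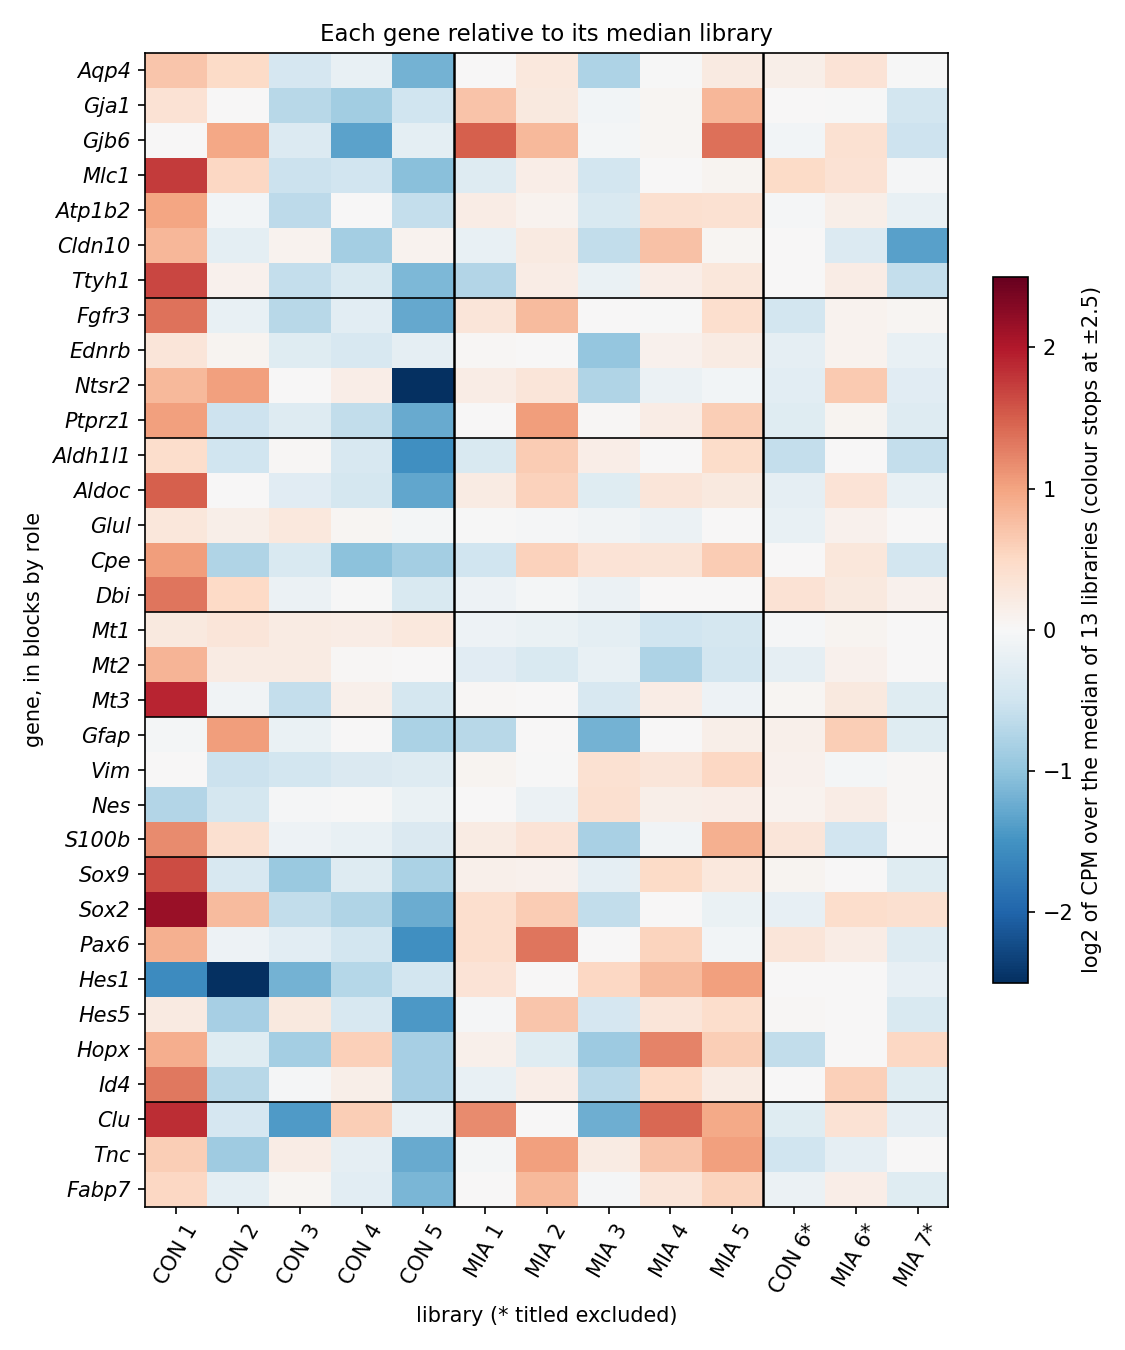
Level of each member in each of the 13 libraries as the log2 ratio to that gene's median over the libraries, with genes ordered by role and excluded libraries on the right. The CON 1 column is high for most rows, and the rows of Hes1, Vim, Mt1 and Mt2 separate the MIA from most CON columns.

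Levels per kilobase of exon placed the members over a wide range. The mean in CON was highest for Dbi at 127 CPM per kb, Mt1 at 109, Fabp7 at 88.7 and Glul at 86.4 CPM per kb. These neighbours lay within the spread of Dbi (SD 69.0, n = 5) and Fabp7 (SD 34.1, n = 5). Cpe and Clu followed at 42.5 and 42.4 CPM per kb, then Ednrb at 39.8, Vim at 36.8 and Mt2 at 27.0 CPM per kb. Ednrb and Vim did not differ beyond their SDs of 8.16 and 5.57. The order changed in CON 2 to CON 5, with Mt1 at 109, Dbi at 97.7, Glul at 84.3 and Fabp7 at 76.5 CPM per kb. There Ednrb (36.7) and Vim (34.5) stood above Cpe (28.5) and Clu (26.3 CPM per kb). The transcription factors Sox2 (0.516 CPM per kb) and Pax6 (0.378 CPM per kb) were the lowest. In CON 2 to CON 5 they were at 0.278 and 0.286 CPM per kb. The length used was the union of all annotated exons of a gene, 11694 bases for Pax6 and 2057 for Sox2. Before division by length, Pax6 (4.42 CPM in CON) lay above Sox2 (1.06 CPM). Astrocyte-restricted members lay in between, with Aqp4 at 7.03 ± 3.34 and Aldh1l1 at 5.33 ± 2.40 CPM per kb (SD, n = 5). All levels from here on are CPM, scaled by edgeR's trimmed mean of M-values and not divided by length, so they compare libraries and not genes.

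Hes1, a repressor that Notch switches on in radial glia and also in endothelium, showed the largest fold change of the 33 with 5 controls. It was at 11.9, 5.75, 15.7, 21.6 and 25.9 CPM in CON 1 to CON 5 and at 45.3, 35.8, 50.7, 61.4 and 72.2 CPM in MIA 1 to MIA 5. Every MIA library lay above every CON library, and the lowest values were those of CON 2 and CON 1. The mean was 16.2 ± 7.92 CPM in CON and 53.1 ± 14.1 CPM in MIA (SD, n = 5 each). The log2 fold change was 1.72 (SE 0.36, edgeR adjusted p = 0.0138 after Benjamini-Hochberg adjustment). Without CON 1 it was 1.63 (SE 0.41, adjusted p = 0.034), and without CON 1 and CON 2, the libraries low in immediate early genes, 1.33 (SE 0.24, adjusted p = 0.00494). The excluded libraries were at 35.5 CPM (CON 6), 35.6 CPM (MIA 6) and 30.7 CPM (MIA 7), so CON 6 reached the level of the MIA libraries. With all 13 libraries the fold change was 1.29 and did not pass (adjusted p = 0.0587).

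The endothelial markers were also higher in MIA, but their sum did not follow Hes1 library by library. It was 1102 CPM in CON 2, where Hes1 was lowest, and lowest in CON 1 at 893 CPM. It was highest in MIA 3 at 4469 CPM, while Hes1 was highest in MIA 5, where the sum was 3745 CPM. In the 3 excluded libraries the endothelial markers summed to 2238 to 2800 CPM, above every retained CON library. Their part in the Hes1 difference was not tested. Hes5, the related Notch target that is more restricted to neural progenitors, did not pass. It was at 7.56, 3.64, 7.59, 4.86 and 2.37 CPM in CON 1 to CON 5 and at 6.29, 10.4, 4.80, 7.97 and 8.70 CPM in MIA 1 to MIA 5, and the groups overlapped. Its log2 fold change was 0.55 (adjusted p = 0.341), and 0.73 without CON 1 (adjusted p = 0.153). Exons of Hes5 overlap those of an antisense transcript over 31.8% of their bases, and its expected counts were not whole numbers in 10 libraries.

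The Notch pathway was also read through 26 other genes, all tested, of which 7 rose and 3 fell, with a median log2 fold change of 0.02. Over all tested genes 5.75% were called higher and 4.58% lower, with a median of -0.01. The ligands Jag1 and Dll4 rose, Jag1 from 6.73 ± 0.535 to 15.7 ± 3.66 CPM (log2 fold change 1.23) and Dll4 from 25.1 ± 6.79 to 72.2 ± 19.8 CPM (1.53). So did the ligand Jag2 (1.13) and the target Hey1, which went from 11.7 ± 2.02 to 24.8 ± 3.27 CPM (1.10; SD, n = 5 each). For these 4 genes edgeR adjusted p ran from 0.000487 for Hey1 to 0.0064 for Jag2. The gene with the highest CPM averaged over both groups, the Notch sheddase Adam10, measured 372 ± 42.2 CPM in CON and 364 ± 17.6 CPM in MIA and was not called. Further calls, named after their values were seen, were the receptors Notch1 and Notch4 and the target Nrarp, which rose, and the Notch-processing genes Ncstn and Adam17, which fell. Leaving out 1 library ended 4 of these calls. Notch4 lost it when CON 1 was dropped (adjusted p = 0.0507) and likewise for CON 4, MIA 3, MIA 4 and MIA 5 (up to 0.0782), and Nrarp without CON 2, MIA 4 or MIA 5 (up to 0.0812). Ncstn lost it on dropping any of MIA 2, MIA 4, MIA 5, CON 2, CON 4 and CON 5 (up to 0.123), and Adam17 without CON 2, CON 4 or any MIA library (up to 0.115). Without CON 1, 7 were called higher, with Notch3 in place of Notch4, and 3 lower, against 7.86% and 6.51% of all genes. With all 13 libraries 4 of the 26 passed (Jag1, Dll4, Nrarp and Hey1), against 4.22% of all genes. Dll4, Jag1, Notch4 and Hey1 are genes that endothelium also uses, and the endothelial marker sums given above were also higher in MIA. Their part in these differences was not tested.

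Vim, the intermediate filament of radial glia and immature astrocytes, which endothelial and mesenchymal cells also carry, rose in MIA. CON 1 to CON 5 were at 218, 150, 159, 171 and 175 CPM, and MIA 1 to MIA 5 at 229, 217, 285, 270 and 313 CPM. The groups overlapped only through CON 1, which lay just above MIA 2. The means were 175 ± 26.4 and 263 ± 39.6 CPM (SD, n = 5 each). MIA over CON gave 0.59 on the log2 scale (SE 0.12, adjusted p by edgeR = 0.00685). Without CON 1 the fold change was 0.69 (SE 0.10, adjusted p = 0.000912). The excluded libraries lay at 235 CPM (CON 6), 211 CPM (MIA 6) and 223 CPM (MIA 7), and with all 13 libraries Vim did not pass (0.44, adjusted p = 0.0533). The endothelial sums given above were also higher in MIA. Within CON, CON 1 had the highest Vim and the lowest endothelial sum (893 CPM). In CON 2 to CON 5 the endothelial sums were 1102, 1398, 1322 and 1465 CPM, with both Vim and the sum lowest in CON 2 and highest in CON 5. Their part in the Vim difference was not tested.

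The other filament genes of the lineage did not pass. Nes, the intermediate filament of neural stem cells, was at 36.6, 45.4, 60.2, 61.0 and 54.5 CPM in CON and at 61.2, 55.2, 80.4, 67.3 and 68.9 CPM in MIA. MIA 1, 3, 4 and 5 lay above all CON libraries, and MIA 2 lay within them. Its log2 fold change was 0.38 (adjusted p = 0.123), which became 0.27 when CON 1 was left out (adjusted p = 0.14). Gfap, the filament of mature and reactive astrocytes, was at 53.8, 115, 49.8, 56.1 and 32.1 CPM in CON and at 34.5, 56.0, 24.5, 55.6 and 62.0 CPM in MIA. Here CON 2 and not CON 1 was the high library, and the fold change was -0.40 (adjusted p = 0.592), or -0.44 without CON 1. S100b, a calcium-binding protein of astrocytes, stayed between 0.913 and 3.61 CPM in the retained libraries.

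**Figure D4:**
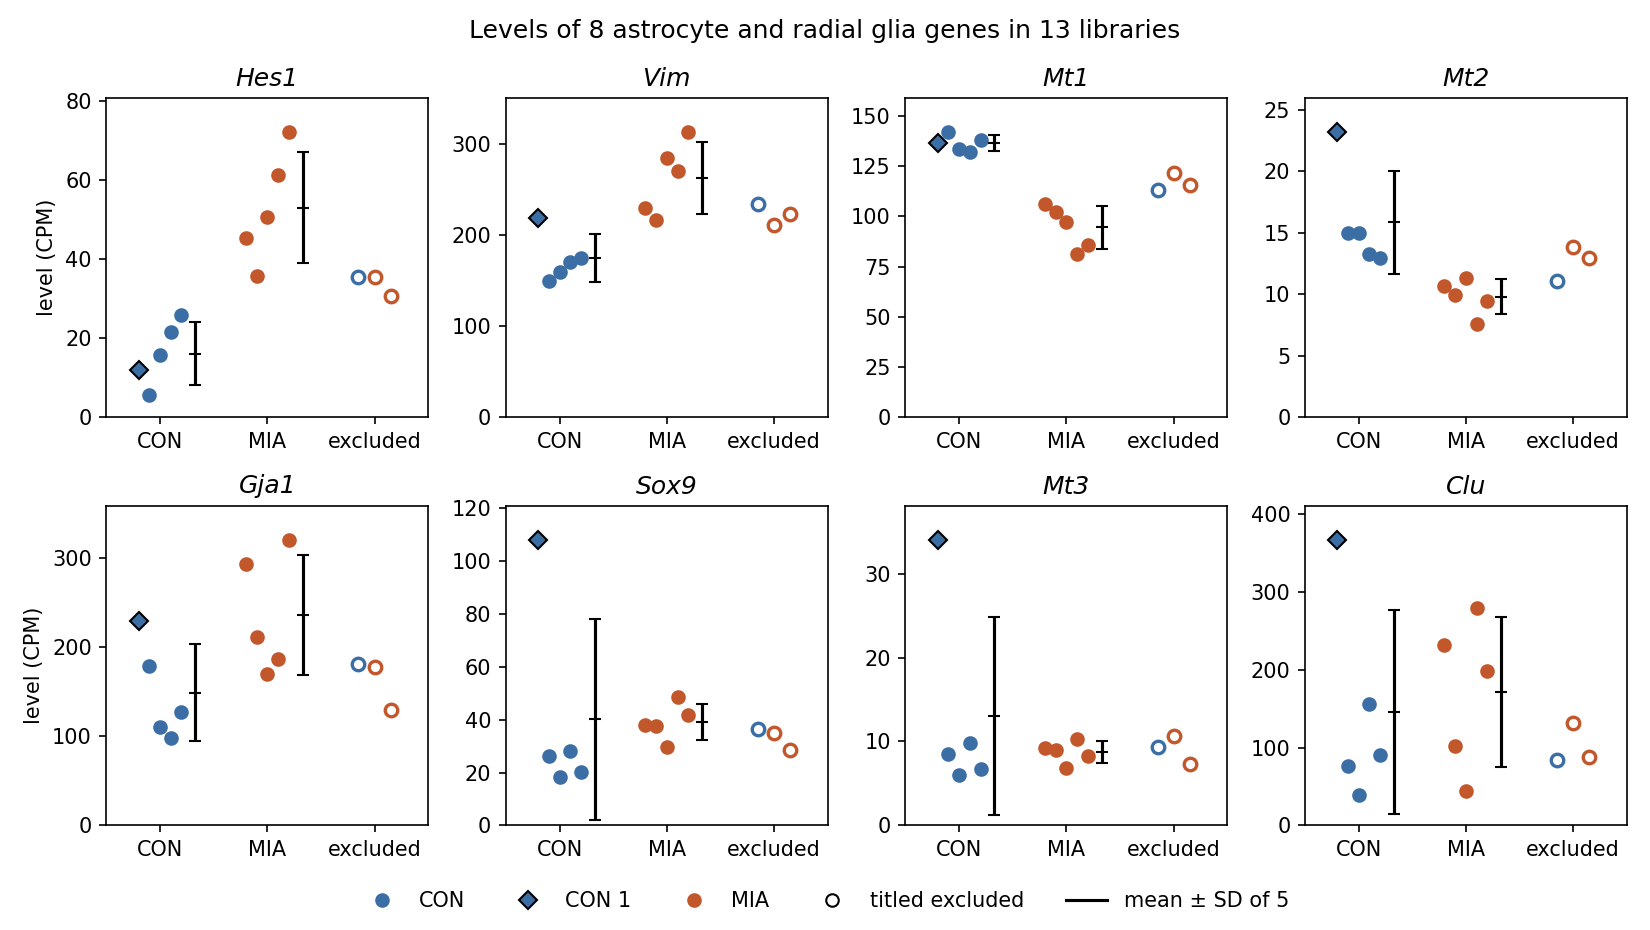
Level in CPM of 8 members in the retained CON and MIA libraries and in the 3 excluded libraries, 1 point a library, with the mean and SD of each retained group. Hes1, Mt1 and Mt2 do not overlap between the retained groups, Vim overlaps through CON 1 alone, and for Gja1, Sox9, Mt3 and Clu the highest control is CON 1.

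The metallothioneins are small cysteine-rich proteins that bind zinc and copper. Mt1 and Mt2 are switched on by zinc through the factor MTF1 and by glucocorticoids in many cells, and Mt3 is the brain form. The 3 genes lie close together on mouse chromosome 8, where the start of Mt2 is 6471 bases before that of Mt1 and that of Mt3 a further 20011 bases before Mt2. The 250 bases before each start are shown as background, and their part in the levels below was not tested. They come from RefSeq on GRCm38.p6, plus strand, 5′ to 3′. Capitals mark the core of the metal response element that MTF1 binds (TGCACNC or TGCGCNC, searched on both strands, so that a reverse match reads GNGTGCA or GNGCGCA).
Mt1, chr8:94178839-94179088: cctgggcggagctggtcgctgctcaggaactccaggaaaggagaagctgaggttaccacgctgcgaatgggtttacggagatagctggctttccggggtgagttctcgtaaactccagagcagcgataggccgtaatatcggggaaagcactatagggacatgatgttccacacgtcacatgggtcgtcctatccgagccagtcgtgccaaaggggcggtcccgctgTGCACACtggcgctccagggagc
Mt2, chr8:94172368-94172617: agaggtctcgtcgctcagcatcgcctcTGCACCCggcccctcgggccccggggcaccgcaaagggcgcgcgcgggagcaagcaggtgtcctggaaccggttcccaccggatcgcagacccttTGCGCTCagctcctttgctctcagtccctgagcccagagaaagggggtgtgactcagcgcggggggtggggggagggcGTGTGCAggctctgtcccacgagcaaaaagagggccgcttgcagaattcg
Mt3, chr8:94152357-94152606: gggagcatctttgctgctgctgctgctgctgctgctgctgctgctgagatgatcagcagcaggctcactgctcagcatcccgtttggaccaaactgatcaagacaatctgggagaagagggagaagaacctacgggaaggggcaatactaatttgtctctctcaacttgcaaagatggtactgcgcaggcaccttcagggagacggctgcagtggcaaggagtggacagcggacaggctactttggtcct

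The Mt2 window held 3 matches to this core, the Mt1 window 1 and the Mt3 window 0. At least 1 match was found in 21.41% of the 32851 RefSeq windows of the same length, and at least 3 in 1.263%. Bases after each annotated start were not searched, so the counts hold for these windows and do not rank the promoters of the 3 genes. A match is a stretch of letters and not a shown binding site. Windows were found for 27 of the 33 members, and 9 of these 27 held a match, Mt1 and Mt2 among them.

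Mt1 was at 137, 142, 133, 132 and 138 CPM in CON 1 to CON 5 and at 106, 102, 97.2, 81.5 and 85.6 CPM in MIA 1 to MIA 5. The groups did not overlap, and the control libraries lay within a narrow band that included CON 1. The means were 136 ± 3.95 and 94.5 ± 10.6 CPM (SD, n = 5 each). MIA over CON gave -0.52 on the log2 scale (SE 0.08, adjusted p by edgeR = 0.00118). Without CON 1 the value was again -0.52 (adjusted p = 0.00118). The excluded libraries lay between the groups at 113 CPM (CON 6), 122 CPM (MIA 6) and 115 CPM (MIA 7). Mt1 was the 1 member that passed with all 13 libraries (-0.38, adjusted p = 0.0318), where 4.22% of all genes were called, 2.71% higher and 1.5% lower.

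Mt2 was at 23.2, 15.02, 14.98, 13.2 and 12.9 CPM in CON 1 to CON 5 and at 10.7, 9.97, 11.4, 7.59 and 9.48 CPM in MIA 1 to MIA 5. Again the groups did not overlap, and here CON 1 stood above the other 4 controls. The means were 15.9 ± 4.197 and 9.82 ± 1.44 CPM (SD, n = 5 each). The log2 difference between MIA and CON was -0.69 (SE 0.18, adjusted p by edgeR = 0.0272). The fold change was -0.51 without CON 1 (adjusted p = 0.0327), and the call was lost without CON 1 and CON 2 (adjusted p = 0.0706), without MIA 4 or without MIA 5 (adjusted p up to 0.0767). The excluded libraries were at 11.1, 13.9 and 12.98 CPM for CON 6, MIA 6 and MIA 7, and with all 13 libraries Mt2 did not pass (adjusted p = 0.132). An antisense transcript overlaps 73.5% of the exon bases of Mt2, but it had at most 12.02 expected counts in any library. Microglial marker sums, given above, fell with Mt1 and Mt2, and their part in the difference was not tested.

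Mt3 did not follow them. It was at 34.0, 8.55, 6.01, 9.82 and 6.69 CPM in CON and at 9.28, 9.04, 6.83, 10.3 and 8.24 CPM in MIA, and CON 1 alone stood out. The log2 fold change was -0.57 with CON 1 (adjusted p = 0.518) and 0.18 without it (adjusted p = 0.597). Of 20 tested genes that carry or handle metals, the zinc importers Slc39a10 and Slc39a8 and the zinc exporter Slc30a1 rose, and the heme oxygenase Hmox1 fell, against 10.3% of all tested genes called in either direction. Slc39a10 went from 119 ± 15.1 to 215 ± 28.0 CPM (log2 fold change 0.86, edgeR adjusted p = 0.000385). Slc39a8 went from 139 ± 31.1 to 231 ± 39.7 CPM (0.74, adjusted p = 0.0142), and Slc30a1 from 6.01 ± 1.23 to 10.5 ± 1.98 CPM (0.80, adjusted p = 0.0195; SD, n = 5 each). Slc30a1, itself a target of MTF1, lost the call without MIA 3, MIA 4 or MIA 5 (adjusted p up to 0.0596). Hmox1 went from 215 ± 36.9 to 149 ± 14.2 CPM (-0.52, adjusted p = 0.0103). The gene with the highest CPM of the list averaged over both groups, the copper importer Slc31a1, measured 206 ± 34.6 CPM in CON and 256 ± 25.02 CPM in MIA without passing (adjusted p = 0.107). Without CON 1, Slc31a1 was called higher too. Then 4 of the 20 were higher and 1 lower, against 7.86% and 6.51% of all genes. With all 13 libraries 1 of the list passed, Slc39a10.

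Leaving out CON 1 changed which members passed. The log2 fold change was higher without it for 30 of the 33 genes, against 48.4% of all tested genes, and its median moved from 0.03 to 0.47 while that of all genes was 0.01. CON 1 was the highest of the 5 controls for 26 members, so leaving it out by itself raises their fold change. These shifts thus restate in part the high levels in CON 1. Without CON 1, 27 members had a positive and 6 a negative fold change, and 8 had changed sign. Then 9 members passed, 27.3% of the 33, against 14.4% of all tested genes. The 7 higher in MIA were Cpe, Fgfr3, Gja1, Hes1, Ptprz1, Sox9 and Vim (7.86% of all genes were called higher), and the 2 lower were Mt1 and Mt2 (6.51% lower). Leaving out CON 2 as well also gave 9, against 12.2% of all genes. Of these, Aldoc, Cpe, Fgfr3, Gja1, Hes1, Mlc1, Sox9 and Vim were higher (6.83% of all genes) and Mt1 lower (5.38%). In that fit 6 of 8 immediate early genes (Fos, Jun, Junb, Egr1, Ier2 and Atf3) were also called lower in MIA, and they were not called with 5 controls. Their part in the members' calls was not tested. Without overlap between the groups, 1 member lay above (Hes1) and 2 below (Mt1 and Mt2) in 5 against 5 libraries, where 5.54% of all genes lay above, 4.43% below and 9.97% either way. Endothelial and neuronal markers were also higher in MIA without CON 1 (10 of 10 and 6 of 10 called), and their part in the members' calls was not tested. Against CON 2 to CON 5 alone, 6 members lay above (Fgfr3, Ptprz1, Vim, Sox9, Pax6 and Hes1) and 2 below, where 8.2% of all genes lay above, 8.02% below and 16.2% either way.

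**Figure D5:**
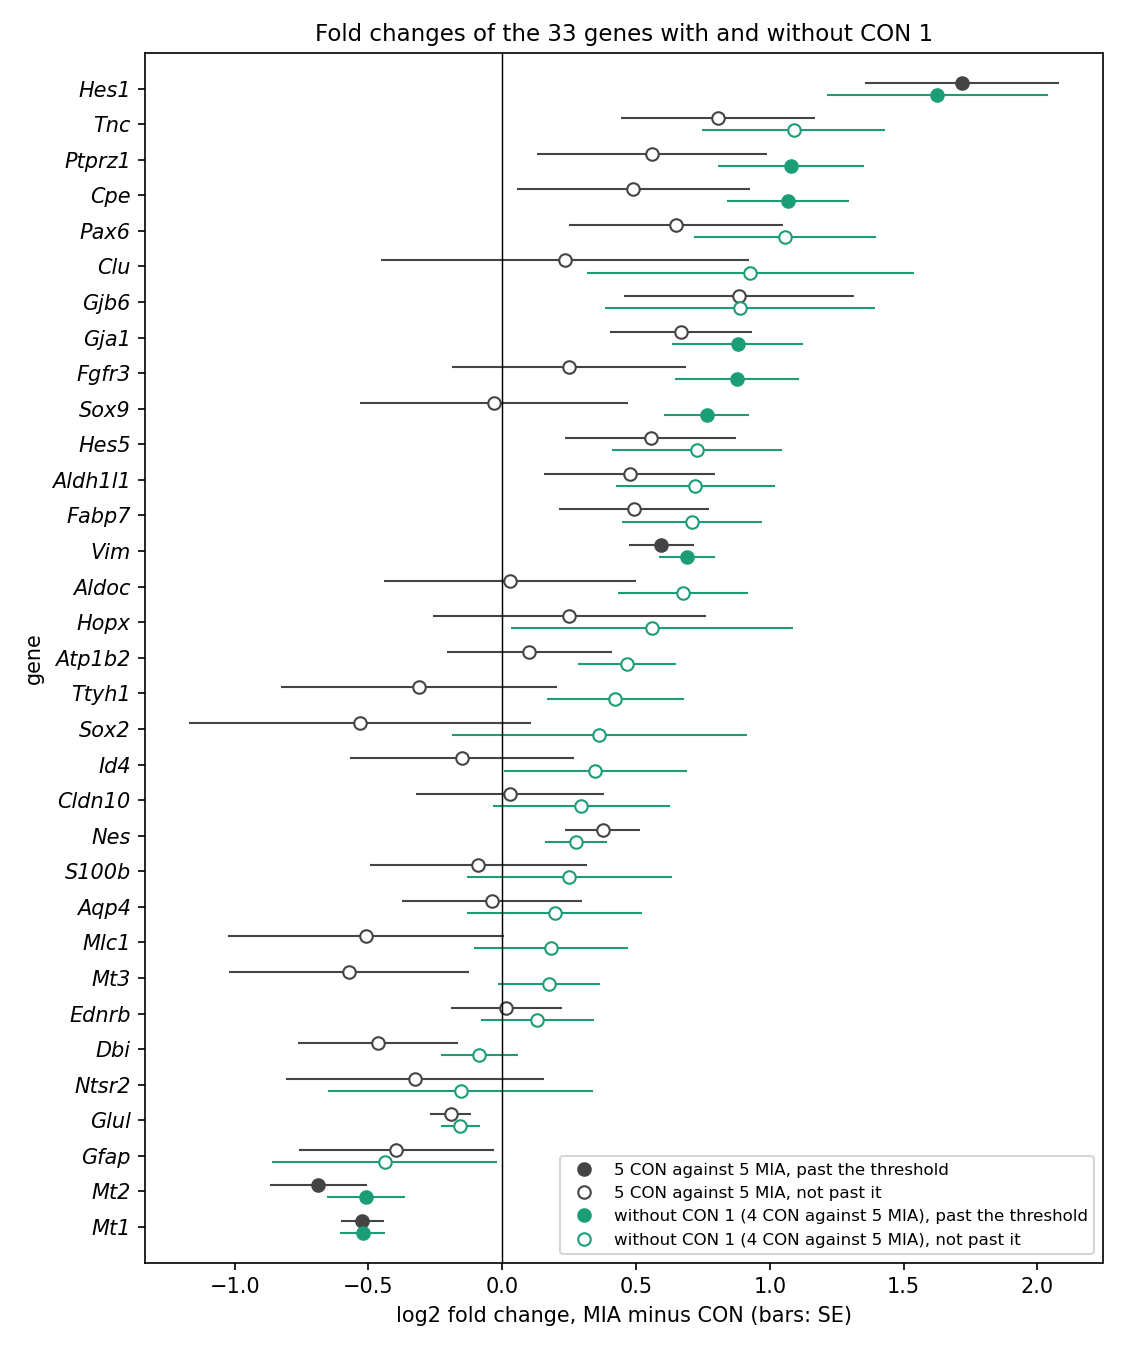
Log2 fold change of MIA over CON with its standard error for the 33 genes, with all 5 CON libraries and without CON 1. With 5 controls, Hes1, Vim, Mt1 and Mt2 passed the test; without CON 1 the values of 30 genes were higher and 9 passed.

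Sox9, the transcription factor that starts and keeps the glial programme, shows the dependence most plainly. It was at 108, 26.3, 18.3, 28.0 and 20.1 CPM in CON 1 to CON 5 and at 38.1, 37.6, 29.7, 48.7 and 41.7 CPM in MIA 1 to MIA 5. CON 1 was above every other library, and the other 4 controls lay below every MIA library. The log2 fold change was -0.03 with CON 1 (SE 0.50, edgeR adjusted p = 0.981) and 0.76 without it (SE 0.16, adjusted p = 0.00574). The excluded libraries were at 36.5 CPM (CON 6), 34.8 CPM (MIA 6) and 28.4 CPM (MIA 7), so CON 6 lay with the MIA libraries here too. The other regulators were low. Pax6, a factor of cortical radial glia, was at 8.76, 4.33, 3.96, 3.43 and 1.64 CPM in CON and at 6.32, 12.01, 4.73, 6.99 and 4.54 CPM in MIA. It did not pass with CON 1 (0.65, adjusted p = 0.377) or without it (1.06, adjusted p = 0.056). Sox2, Hopx and Id4 stayed at or below 5.77 CPM in every library and did not pass.

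Among the receptors, Fgfr3 and Ptprz1 passed without CON 1. Fgfr3, a growth factor receptor of astrocytes and their precursors, was at 34.0, 11.8, 8.27, 11.1 and 5.46 CPM in CON and at 16.5, 22.9, 13.3, 13.2 and 17.8 CPM in MIA. Its log2 fold change was 0.25 with CON 1 (edgeR adjusted p = 0.808) and 0.88 without it (SE 0.23, adjusted p = 0.0227). Ptprz1, a receptor phosphatase of radial glia and oligodendrocyte precursors, was at 188, 64.3, 74.1, 60.8 and 38.7 CPM in CON and at 92.6, 192, 94.5, 105 and 143 CPM in MIA. For both genes the 4 other controls lay below all MIA libraries, and CON 1 lay above at least 4 of the 5. The Ptprz1 fold change was 0.56 with CON 1 (adjusted p = 0.511), 1.08 without it (SE 0.27, adjusted p = 0.0313) and 1.11 without CON 1 and CON 2 (adjusted p = 0.0681). The endothelin receptor Ednrb, found on astrocytes and vessel cells, was level between groups at 170 ± 34.8 and 171 ± 45.2 CPM (SD, n = 5 each; log2 fold change 0.02, SE 0.21, and 0.13 without CON 1). MIA 3, at 92.4 CPM, was its lowest library. The neurotensin receptor Ntsr2 was at 0.442 to 5.17 CPM over the retained libraries and did not pass.

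The gap junction and membrane proteins did not pass with 5 controls, and of these 7 genes Gja1 passed without CON 1. Gja1, which encodes the astrocyte connexin Cx43, was at 229, 179, 111, 97.7 and 127 CPM in CON and at 293, 211, 169, 186 and 319 CPM in MIA. MIA 1 and MIA 5 lay above all controls, and CON 3 to CON 5 lay below all MIA libraries. The log2 fold change was 0.67 (SE 0.27, adjusted p = 0.161), and 0.88 without CON 1 (SE 0.24, adjusted p = 0.0441). Its partner Gjb6, the astrocyte connexin Cx30, was highest in the same MIA libraries at 24.4 and 22.5 CPM but was not called with CON 1 (0.89, adjusted p = 0.255) or without it (0.89, adjusted p = 0.295). Of 20 other connexins and pannexins 7 could be tested, and Gja4, a connexin of arterial endothelium, rose from 27.5 ± 5.90 to 50.4 ± 10.0 CPM (0.88, SE 0.16, adjusted p = 0.00431; SD, n = 5 each). Gja4 was called without CON 1 as well, and with all 13 libraries it did not pass (adjusted p = 0.124).

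The water channel of astrocyte endfeet, Aqp4, did not separate the groups. It was at 69.9, 60.2, 32.0, 38.0 and 19.0 CPM in CON and at 43.0, 51.7, 25.1, 42.7 and 50.1 CPM in MIA, with CON 1 and CON 2 the highest and CON 5 the lowest. The log2 fold change was -0.04 (SE 0.34, adjusted p = 0.965), and 0.20 without CON 1 (SE 0.33, adjusted p = 0.75). Mlc1, its neighbour in the endfoot membrane, was at 132, 56.2, 26.9, 28.1 and 19.1 CPM in CON and at 31.3, 44.1, 28.4, 39.2 and 40.9 CPM in MIA. CON 1 and CON 2 again lay above all MIA libraries, and the fold change went from -0.51 (adjusted p = 0.637) to 0.18 without CON 1 (adjusted p = 0.736) and 0.57 when both were left out (SE 0.17, adjusted p = 0.0419). Ttyh1, Atp1b2 and Cldn10 also had their highest value in CON 1 (93.0, 123 and 4.60 CPM) and did not pass with or without it.

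The enzymes of astrocyte metabolism did not pass with 5 controls. Aldoc, the brain aldolase, was at 102, 36.4, 29.7, 26.7 and 14.7 CPM in CON and at 41.7, 54.1, 29.6, 45.1 and 43.3 CPM in MIA. CON 1 was far above all other libraries, and the log2 fold change was 0.03 with it (adjusted p = 0.981), 0.68 without it (adjusted p = 0.0947) and 0.85 without CON 1 and CON 2 (SE 0.24, adjusted p = 0.0408). Aldh1l1, the folate enzyme widely used to label astrocytes, was at 39.1, 20.2, 29.3, 21.8 and 9.95 CPM in CON and at 22.0, 44.5, 32.1, 28.7 and 39.5 CPM in MIA, and the groups overlapped (0.48, adjusted p = 0.439; 0.72 without CON 1, adjusted p = 0.145). Cpe, which trims peptide hormones, was at 256, 73.1, 95.0, 60.9 and 68.9 CPM in CON and at 87.1, 186, 158, 154 and 192 CPM in MIA. CON 1 was the highest library, and the other controls lay below 4 of the 5 MIA libraries. The Cpe fold change was 0.49 with CON 1 (adjusted p = 0.58) and 1.07 without it (SE 0.23, adjusted p = 0.014). Glul, glutamine synthetase, which microglia also express, was at 287 ± 27.5 and 250 ± 11.04 CPM (SD, n = 5 each; -0.19, adjusted p = 0.142; leaving out CON 1, -0.16 with adjusted p = 0.18). Dbi, an acyl-CoA binding protein, was at 345, 193, 123, 136 and 104 CPM in CON and within 124 to 136 CPM in MIA, the narrower of the groups. Its fold change was -0.46 (adjusted p = 0.418), and leaving out CON 1 gave -0.09 (adjusted p = 0.747).

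The secreted and lipid-binding members had positive fold changes and did not pass. Clu, a secreted chaperone of astrocytes that choroid plexus also makes, had the widest range of the 3 at 367, 76.5, 38.5, 157 and 90.4 CPM in CON and 232, 103, 43.9, 279 and 199 CPM in MIA. High and low libraries occurred in both groups, and the log2 fold change was 0.24 (SE 0.69, adjusted p = 0.891), and 0.93 without CON 1 (SE 0.61, adjusted p = 0.381). Its 6 highest libraries came in the same order as the 6 highest choroid plexus and ependyma sums, with CON 1 first, then MIA 4 and MIA 1. That sum was mostly the choroid plexus transcript Ttr, at 15317 of 15689 CPM in CON 1 and 12423 of 12670 CPM in MIA 4. The ependymal genes had another order: after CON 1, Foxj1 was highest in CON 6 (23.0 CPM) and Ccdc153 in CON 2 (9.35 CPM). The part of those cells in the Clu level was not tested. Tnc, a matrix protein of radial glia niches, was at 44.7, 15.8, 33.1, 24.97 and 12.2 CPM in CON and at 28.2, 59.1, 33.7, 47.3 and 59.6 CPM in MIA (0.81, adjusted p = 0.223; 1.09 without CON 1, adjusted p = 0.0693). Fabp7, the brain lipid-binding protein of radial glia, was at 172, 102, 126, 100 and 55.0 CPM in CON and at 121, 213, 119, 149 and 177 CPM in MIA (0.49, adjusted p = 0.348; 0.71 without CON 1, adjusted p = 0.115). Both overlapped between groups, and both had their lowest value in CON 5.

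The 3 libraries titled excluded lay mostly inside the range of the 5 retained controls, CON 1 included. All 3 exceeded the 5 controls for Hes1 and Nes, 2 did for Vim, and all 3 lay below the controls for Mt1. For the members that passed only when CON 1 was left out, CON 6, MIA 6 and MIA 7 were at 181, 177 and 130 CPM for Gja1 and at 75.4, 97.0 and 74.4 CPM for Ptprz1. Fgfr3 was at 9.71, 14.1 and 13.7 CPM and Cpe at 124, 151 and 90.3 CPM in the same order. These values lay within the range of the retained controls, CON 1 included. With all 13 libraries none of Gja1, Ptprz1, Fgfr3, Cpe and Sox9 passed (edgeR adjusted p = 0.315 to 0.934). Both comparisons keep CON 1, so they cannot decide on the calls made without it. Against CON 2 to CON 5, all 3 lay above the highest control for Ptprz1 (74.1 CPM) and Sox9 (28.0 CPM). MIA 6 and MIA 7 did so for Fgfr3 (11.8 CPM), CON 6 and MIA 6 for Cpe (95.0 CPM), and CON 6 alone for Gja1 (179 CPM).

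Other genes of the same lineages, outside the 33, were followed as lists. Of 59 tested astrocyte and radial glia genes 6 rose and 1 fell with 5 controls, with a median log2 fold change of 0.27, against 5.75% of all tested genes called higher, 4.58% lower and a median of -0.01. Only with both directions pooled are the 7 calls a share near the 10.3% called over all genes. Of the 59 fold changes 44 were positive, against 48.9% of all tested genes. Without CON 1, 18 were called higher and 1 lower, against 7.86% and 6.51% of all genes, and the median was 0.71. CON 1 held the highest of the 13 values for 32 of the 59. The secreted protease Htra1 rose from 26.0 ± 3.69 to 54.7 ± 8.57 CPM (log2 fold change 1.08, edgeR adjusted p = 0.000226), and the gliogenic factor Nfib from 28.7 ± 6.63 to 59.7 ± 8.18 CPM (1.06, adjusted p = 0.0008). Id3, an inhibitor of basic helix-loop-helix factors, rose from 59.0 ± 8.76 to 104 ± 21.8 CPM (0.82), Ddah1 from 40.7 ± 6.00 to 77.3 ± 14.1 CPM (0.93) and Tril from 19.8 ± 4.31 to 30.7 ± 3.53 CPM (0.63; SD, n = 5 each). Each of these 5 passed in all 10 fits that left out 1 library. The matrix proteoglycan Ncan rose by 0.87 (adjusted p = 0.0323) and lost the call without CON 2, CON 4, MIA 2, MIA 4 or MIA 5 (adjusted p up to 0.0843). Phgdh, the serine synthesis enzyme of radial glia, fell from 404 ± 29.2 to 303 ± 43.2 CPM (-0.41, adjusted p = 0.016), and lost the call without MIA 5 (adjusted p = 0.062). Sparcl1, with the highest CPM of the astrocyte list averaged over both groups, was at 315 ± 111 and 448 ± 56.6 CPM and passed without CON 1 (adjusted p = 0.000499) but not with it (adjusted p = 0.136). With all 13 libraries 3 were called higher (Id3, Nfib and Ddah1) and Phgdh lower. Vessel cells also use Id3, and the part of the endothelial sums given above in these differences was not tested.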

How the data were processed

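RNA from CD11b-selected cells was reverse transcribed from poly(A) with a modified Smart-Seq2 protocol and tagmented with Nextera XT, which does not mark strand, per the labels' protocols. The deposited table holds expected counts per gene for 13 libraries, and the submitters' processing notes name STAR, RSEM and DESeq2; the genome build and annotation were looked for and not given in the sources used here. Expected counts (20.61% of values above 0 were not whole) were rounded. Identifiers were matched to symbols with GENCODE M21, and 55141 of 55487 rows had one. CPM values were computed here with edgeR's trimmed mean of M-values over all 13 libraries (factors 0.94 to 1.06). Exon lengths were the union of all annotated exons of a gene in GENCODE M21, which can be longer than any 1 transcript.

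MIA was compared with CON in 5 against 5 libraries with edgeR 4.0.16 in R 4.3.3 (filterByExpr, robust quasi-likelihood test, Benjamini-Hochberg over 15511 genes). Checked on simulated data with 15175 genes and 5 against 5 libraries, the test recovered 24.6% of genes changed 1.5-fold, 56.1% at 2-fold and 81.2% at 4-fold. The simulation gave 107 calls, against 1602 in the data. Its adjusted threshold was thus stricter, and these shares do not measure recovery in the data. Reads were PCR-amplified without molecular identifiers, so 3 counts, taken as the floor, were 0.0879 to 0.117 CPM and cover counting error only. No pair of libraries agreed within sampling noise. Exons of 9 members overlap another annotated gene, where reads cannot be told apart by strand. No label says what a replicate number shares, so no block was used in the main test. Alternatives were DESeq2 1.42.0, limma-voom, other scalings, a stricter filter and none, a replicate block, all 13 libraries, each library left out and CON 1 with CON 2 left out.

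The members and lists were chosen with earlier results of these data known. Named genes of the other lists were those that passed, up to 5 by smallest p, and the gene of highest mean CPM over both groups; 1 gene of the Notch list is not reported here. The excluded libraries entered only the fit of all 13.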

Additional observations from a re-analysis of the deposited data

Results flagged for a closer look

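A library standing apart within its group of 5, by a gap to its nearest neighbour that was large against the group's range, was found in 12 of the 66 gene-and-group combinations tested (33 genes, CON and MIA). For a single gene, chance marks about 1 in 20 such groups. The 33 genes were measured in the same libraries, so the 66 combinations are not independent and the 12 cannot be weighed against that rate. In 10 of the 12 the library was CON 1, above the other 4 controls. It stood at 123 CPM for the sodium pump subunit Atp1b2, where the next control was at 62.4 CPM, and at 93.0 CPM for Ttyh1, next 31.5 CPM. Among receptors it was at 34.0 CPM for Fgfr3, next 11.8 CPM, and at 188 CPM for Ptprz1, next 74.1 CPM. Among enzymes it was at 102 CPM for Aldoc, next 36.4 CPM, and at 256 CPM for Cpe, next 95.0 CPM. The metallothioneins Mt2 and Mt3 were at 23.2 and 34.0 CPM, next 15.02 and 9.82 CPM. The regulators Sox9 and Id4 were at 108 and 5.77 CPM, next 28.0 and 2.57 CPM. The other 2 were CON 2 for Gfap, at 115 CPM with the next control at 56.1 CPM, and MIA 3 for Ednrb, at 92.4 CPM with the next MIA library at 180 CPM.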

How the results depend on the processing

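None of Hes1, Vim, Mt1 or Mt2 changed direction under any alternative run. The number of members that passed, 4, became 1 with all 13 libraries, 9 without CON 1 and CON 2, and 3 to 9 when 1 library was left out (9 without CON 1). Over all genes the 1602 calls (10.3% of those tested) became 659 with all 13 libraries (4.22%) and 1966 without CON 1 and CON 2 (12.2%). DESeq2 called 2162 of 15511 genes, and leaving out 1 library gave 1037 to 2263 (14.4% without CON 1). The counts of members and of the lists below are to be read beside these totals. Of the 59 other astrocyte and radial glia genes, 7 passed; DESeq2 called 12, all 13 libraries 4, the fit without CON 1 and CON 2 called 19, and leaving out 1 library 5 to 19. For the Notch pathway (10) these were 4 with all 13 libraries and 6 to 10 with 1 library left out, and for metal handling (4) 1 and 3 to 5. For the connexins (1) DESeq2 gave 2, all 13 libraries 0 (1, Gja4, at an unadjusted p under 0.05), the fit without CON 1 and CON 2 gave 2, and leaving out 1 library 1 to 2. The cause was not tested. With the replicate number as a block, 1524 genes and 6 members passed, adding Gja1 and Nes. Same-numbered deviations correlated at 0.058 to 0.302, and 2 of 5 numbers matched best with themselves. These values do not settle whether the numbers are pairs, and no label says what a number shares, so they were not taken as pairs.
Directions that changed were those of members that had not passed with 5 controls. The log2 fold changes without CON 1 and CON 2 were 0.52 for Aqp4, 0.57 for Mlc1, 0.65 for Ttyh1, 0.34 for Ntsr2, 0.11 for Dbi, 0.22 for Mt3, 0.015 for Gfap, 0.43 for S100b, 0.82 for Sox9, 0.96 for Sox2 and 0.23 for Id4. With the replicate block they were 0.048 for Aqp4, 0.077 for Ttyh1, -0.013 for Ednrb, 0.35 for Sox9 and 0.029 for Id4. With limma-voom they were 0.078 for Aqp4, 0.030 for Ttyh1, -0.012 for Ednrb, 0.044 for Ntsr2, 0.34 for Sox9, 0.037 for Sox2 and 0.013 for Id4. Library totals gave 0.012 for Aqp4 and 0.014 for Sox9, upper-quartile scaling -0.012 for Ednrb and -0.0099 for Aldoc, and all 13 libraries -0.16 for Cldn10. With 1 library left out the ranges were -0.23 to 0.20 for Aqp4, -0.72 to 0.18 for Mlc1, -0.034 to 0.47 for Atp1b2, -0.18 to 0.30 for Cldn10, -0.52 to 0.42 for Ttyh1, -0.060 to 0.17 for Ednrb and -0.19 to 0.68 for Aldoc. They were -0.76 to 0.18 for Mt3, -0.32 to 0.25 for S100b, -0.22 to 0.76 for Sox9, -0.78 to 0.36 for Sox2, -0.10 to 0.56 for Hopx, -0.32 to 0.35 for Id4 and -0.013 to 0.93 for Clu. Outside those that left out 1 library, 315 of 353 values kept their direction and side of the threshold. Depth limits Sox2, Hopx and Ntsr2 most, which fell to 0.284, 0.507 and 0.442 CPM in single libraries.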

Other observations

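Ciliated-cell genes and choroid plexus genes, which neighbour the astrocyte lineage at the ventricle wall, varied among the libraries without following CON and MIA. The transthyretin gene Ttr, a choroid plexus transcript, was at 15317 CPM in CON 1, 370 in CON 2, 23.3 in CON 3, 7770 in CON 4 and 3691 CPM in CON 5. In MIA 1 to MIA 5 it was at 9209, 2361, 722, 12423 and 7749 CPM. The ciliary genes Ccdc153 and Tmem212 were at 23.7 and 18.5 CPM in CON 1 and at no more than 9.35 and 5.49 CPM in the other 12 libraries, whose next highest value was CON 2 for both. Ttr in CON 2 and CON 3 was below every other library's, so the ciliary and the choroid plexus genes did not share an order over the controls.

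Outside CON 1, the highest of the 13 values fell in MIA 2 for 5 members, in MIA 5 for 4, in CON 2 for 3, and in MIA 1, MIA 3 and MIA 4 for 1 each. MIA 2 also held the highest neuronal marker sum, at 159 CPM, and the highest sum of the oligodendrocyte lineage, at 267 CPM. The members led by MIA 2 were Ptprz1, Aldh1l1, Pax6, Hes5 and Fabp7.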
